A study of Mus musculus with 7 samples.

Results

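The genes described here are 48 cell cycle and proliferation genes, compared between the livers of control and LPS-treated mice. They were taken by gene symbol from the 56691 genes in the table of read counts, and all 48 symbols were found. They fall into 5 groups by phase: 5 cyclins and kinases of G1, 5 genes of the G1/S switch, 13 replication genes, 15 genes of G2 and mitosis, and 10 inhibitors. The livers came from male C57BL/6J mice, an inbred laboratory strain, bought at 8 weeks of age and kept for 2 weeks before the experiment. The LPS group (3 of 6 mice were sequenced) received lipopolysaccharide, a component of the bacterial outer membrane, at 10 mg/kg into the peritoneum and was killed 24 h later. The control group (4 of 6 mice were sequenced) received no LPS, and no vehicle injection is named for it. The third arm of the study, which received sulforaphane before LPS, was not analysed here. The question put to the counts was whether liver cells enter or leave the cycle 24 h after LPS.

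A cell leaves rest when D-type cyclins activate the kinases CDK4 and CDK6, which phosphorylate the retinoblastoma protein and free the E2F factors to switch on the genes of DNA synthesis. Cyclin E with CDK2 then starts replication, cyclin A and cyclin B with CDK1 carry the cell through G2 and mitosis, and inhibitors such as p21, p27 and p57 hold the kinases back. Hepatocytes of an adult liver are mostly at rest and return to the cycle when tissue is lost or injured.

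Poly(A) RNA was sequenced, and the total counts per mouse were between 14991022 and 20500391. Levels are given in CPM, the standard unit for a gene's count relative to the scaled size of its library, and changes as log2 fold changes of LPS against control with their standard error (SE). A gene passed at an adjusted p below 0.05 in edgeR's quasi-likelihood test (two-sided, Benjamini-Hochberg adjustment over the 13683 genes with enough counts). The acute-phase gene Hp, used to check the labels, was at 2669 ± 568 CPM in controls (SD, n = 4) and 27528 ± 4302 CPM after LPS (SD, n = 3). Saa1, which encodes serum amyloid A, was at 87.3 ± 40.4 CPM in controls (SD, n = 4) and 22105 ± 4939 CPM after LPS (SD, n = 3). Albumin (Alb) was the most abundant of the hepatocyte markers in the 7 samples.

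LPS replicates 2 and 3 were closer to each other than any other pair within a group. The SD of their log2 ratio was 0.10 over 1729 genes with more than 2000 counts in the pair, while the 8 remaining pairs had values from 0.29 to 0.58. The variance between them was 3.80 times the counting noise over 4651 genes with 20 to 200 counts in the pair, the lowest of the 9 pairs, where the others had 4.97 to 8.63. This bears only on whether 1 library was deposited under both names. They were analysed as labelled, as 2 mice, and results are also given with both summed into 1 sample. The share of mitochondrial counts was 23.7%, 14.6%, 7.48% and 8.96% in control replicates 1 to 4 and 6.45%, 3.83% and 3.94% in LPS replicates 1 to 3. Its part in the results was not tested.

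After LPS, 3 inhibitors rose (Cdkn1a, Btg2 and Gadd45g), and 5 genes fell: the G1 genes Ccnd1 and Cdk6, the nucleotide synthesis genes Tk1 and Tyms, and the inhibitor Cdkn1c. No gene of the G1/S switch or of G2 and mitosis passed. Of the 48 genes, 42 had enough counts to be tested, and the 3 that rose are 7.14% of these, where 13.3% of all genes tested rose. The 5 that fell are 11.9%, where 13% of all genes tested fell. They include Cdkn1c, whose call is set aside below, since only the controls held enough counts of it. With an absolute log2 fold change above 1 asked for as well, 3 cell cycle genes were higher and 4 lower, against 7.81% and 7.31% of all genes. In 6 of the 42 genes (14.3%) every LPS sample lay above every control, and in 6 (14.3%) every LPS sample lay below, against 18.1% and 17.4% of all genes tested. The median log2 fold change was 0.08 over the 42 genes and -0.01 over all genes tested, and 23 of the 42 had a positive value. These shares are near or below those of all genes, so the changes belong to single genes and are not a result about the set. Over all genes 1825 rose and 1773 fell, a split that became 1350 and 2057 with total counts in place of scaling factors.

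**Figure D1:**
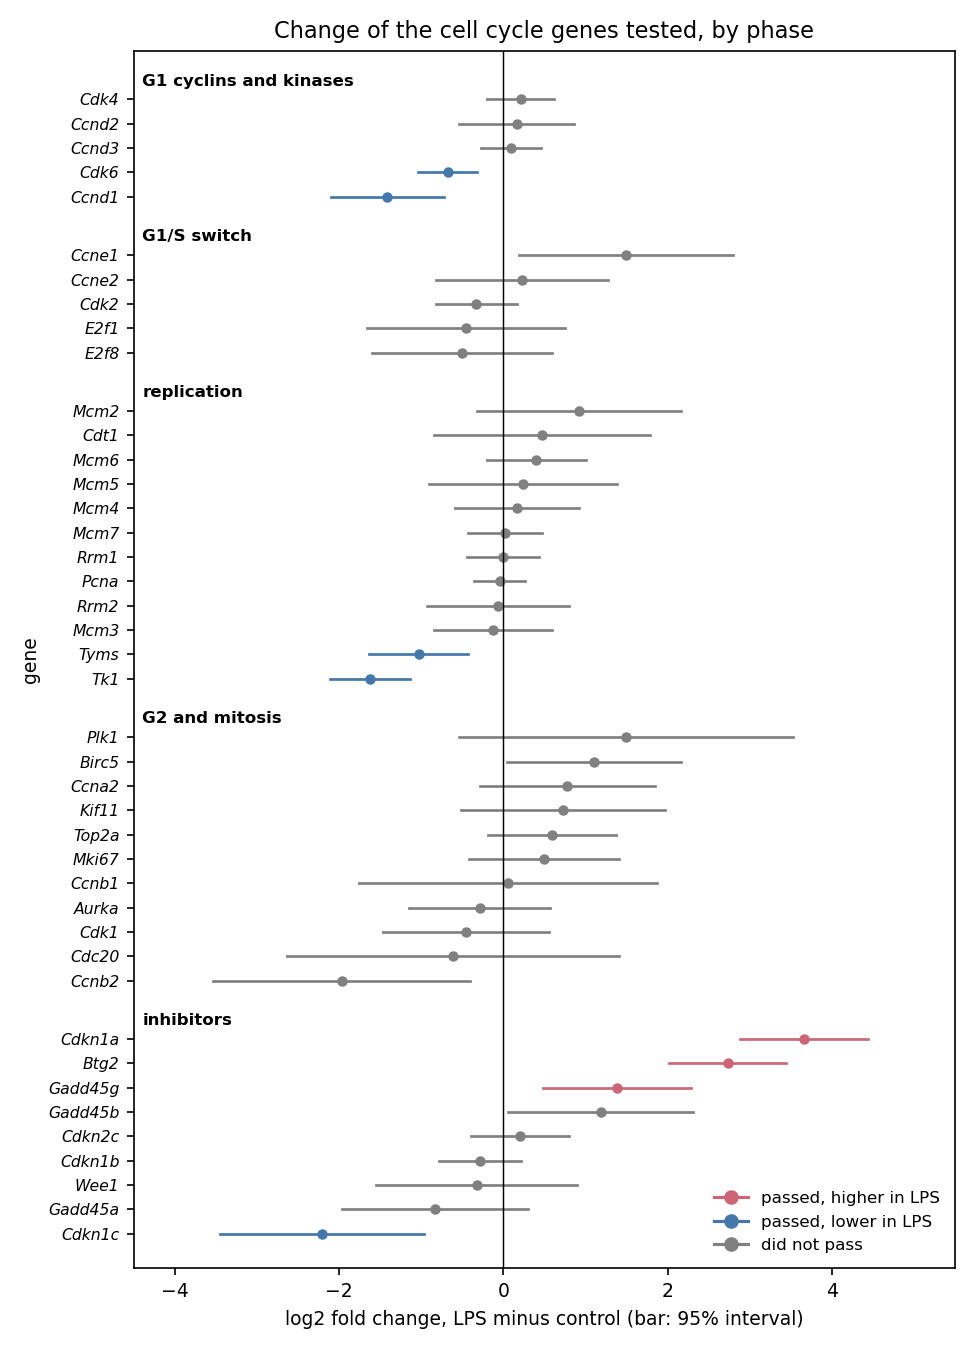
Log2 fold change of LPS against control (x axis) for the 42 cell cycle genes tested, by phase (y axis), where the point is the estimate and the bar its 95% interval. Red marks the 3 genes that passed upward (3.67, 2.73 and 1.38 for Cdkn1a, Btg2 and Gadd45g), blue the 5 that passed downward and grey the 34 that did not pass.

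Among the G1 cyclins and kinases, 2 of 5 fell and none rose, at an unadjusted p below 0.05 and in DESeq2 as well. Of all genes tested, 18.7% were higher and 18.7% lower at an unadjusted p below 0.05. Ccnd1 (ENSMUSG00000070348) encodes cyclin D1, which links growth signals to the entry into the cycle. Its level was 10.9, 12.1, 11.2 and 12.0 CPM in control replicates 1 to 4 and 7.05, 3.48 and 2.30 CPM in LPS replicates 1 to 3. The fall was 2.66-fold (log2 fold change -1.41, SE 0.32, adjusted p = 0.00548, edgeR's quasi-likelihood test). The 4 controls lay close together, the 3 LPS samples spread widely with replicate 1 the highest, and the groups did not overlap. Without LPS replicate 1 the log2 fold change was -1.99, and with LPS replicates 2 and 3 summed it was -1.22. In a tissue sample, fewer cells that carry a transcript and less of it per cell cannot be told apart.

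Cdk6 (ENSMUSG00000040274) encodes one of the kinases that cyclin D1 activates. It was at 23.0, 18.6, 18.6 and 19.3 CPM in control replicates 1 to 4 and at 14.1, 11.5 and 11.5 CPM in LPS replicates 1 to 3. The difference was 1.60-fold (log2 fold change -0.68, SE 0.16, adjusted p = 0.00874, edgeR's quasi-likelihood test). Control replicate 1 was the highest sample, and all LPS samples were below all controls. The call was lost narrowly without LPS replicate 2 (adjusted p = 0.0512, edgeR) or without LPS replicate 3 (adjusted p = 0.0504, edgeR), the range over all alternative settings being 0.00523 to 0.0512.

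The partners of these genes did not pass. Cdk4, the other kinase of the D-type cyclins, had a log2 fold change of 0.21 with a 95% interval from -0.20 to 0.62. Ccnd3, which encodes cyclin D3, was at 17.8 ± 2.62 CPM in controls (SD, n = 4) and 19.0 ± 2.15 CPM after LPS (SD, n = 3), with an interval of the log2 fold change from -0.27 to 0.46. For Ccnd2, which encodes cyclin D2, the interval was -0.54 to 0.86. These intervals do not show that the levels were equal, but all 3 stay within 1 log2 unit. Per kilobase of exon, the mean level in controls was 2.45 CPM for Ccnd1, 2.03 for Ccnd3 and 0.493 for Ccnd2. After LPS the mean level per kilobase was 0.908 CPM for Ccnd1, 2.17 for Ccnd3 and 0.552 for Ccnd2. By this measure Ccnd1 stood above Ccnd3 in controls and below it after LPS. The order in controls rests on the lengths used, the union of all annotated exons (4.71 kb for Ccnd1, 8.78 kb for Ccnd3). In CPM Ccnd3 was above Ccnd1 in controls too, at 17.8 against 11.5. The summed level of the 5 genes overlapped between groups, at 65.0 to 80.6 CPM in controls and 58.4 to 70.6 CPM after LPS.

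Of the 5 genes of the G1/S switch, none passed edgeR's quasi-likelihood test, none passed DESeq2, and 1 had an unadjusted p below 0.05. That gene was Ccne1, which encodes cyclin E1, the activator of CDK2. Its level was 0.283, 0.189, 0.428 and 0.629 CPM in control replicates 1 to 4 and 0.876, 1.35 and 1.12 CPM in LPS replicates 1 to 3. Every LPS sample lay above every control, but the counts were 3 to 13 in controls and 18 to 21 after LPS, and the adjusted p was 0.0860 in edgeR (log2 fold change 1.50, 95% interval 0.19 to 2.80). The second cyclin E gene, Ccne2, had a log2 fold change of 0.23 with an interval from -0.82 to 1.27. Cdk2 itself was at 9.97 ± 2.30 CPM in controls (SD, n = 4) and 7.94 ± 1.23 CPM after LPS (SD, n = 3), with an interval from -0.82 to 0.17.

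E2f1, an activator among the E2F factors, was low in all samples, from 0.436 to 2.27 CPM, and the interval of its log2 fold change ran from -1.66 to 0.75. E2f8 encodes an E2F factor that represses its targets and is known for its part in the polyploidy of hepatocytes. Its level was 4.74, 4.42, 20.8 and 4.50 CPM in control replicates 1 to 4 and 7.24, 6.25 and 4.67 CPM in LPS replicates 1 to 3. Control replicate 3 stood far above the other 6 samples, which all lay between 4.42 and 7.24 CPM. The sign of the log2 fold change rested on that mouse, at -0.51 with it and 0.41 without it, and neither passed.

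Of the 13 replication genes 12 were tested, 2 fell and none rose, and the same counts were given by DESeq2 and by an unadjusted p below 0.05. The 2 of 12 are near the share of all genes tested that fell, 13%, or 18.7% at an unadjusted p below 0.05. Both genes that fell make thymidine nucleotides. Tk1 (ENSMUSG00000025574) encodes cytosolic thymidine kinase, the salvage enzyme for thymidine. It was at 12.5, 12.2, 13.8 and 18.9 CPM in control replicates 1 to 4 and at 5.30, 3.87 and 4.73 CPM in LPS replicates 1 to 3. The fall was 3.09-fold (log2 fold change -1.63, SE 0.23, adjusted p = 0.000180, edgeR's quasi-likelihood test). The highest LPS sample was below the lowest control, and control replicate 4 was the highest of the controls. Leaving out any single mouse gave log2 fold changes from -1.74 to -1.47, and summing LPS replicates 2 and 3 gave -1.58.

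Tyms (ENSMUSG00000025747) encodes thymidylate synthase, which makes the nucleotide anew from deoxyuridine monophosphate. Its level was 10.2, 8.90, 7.09 and 6.15 CPM in control replicates 1 to 4 and 4.47, 2.71 and 4.61 CPM in LPS replicates 1 to 3. The fall was 2.04-fold (log2 fold change -1.03, SE 0.28, adjusted p = 0.0159, edgeR's quasi-likelihood test). The groups did not overlap, LPS replicate 2 was the lowest sample, and without it the adjusted p was 0.0763 in edgeR, the highest of a range that began at 0.00404.

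The other replication genes did not pass. Pcna, which encodes the sliding clamp of the DNA polymerases, was at 23.5, 22.3, 21.7 and 20.5 CPM in control replicates 1 to 4 and at 20.4, 23.8 and 19.8 CPM in LPS replicates 1 to 3. Its groups overlapped, and the interval of its log2 fold change, from -0.35 to 0.27, was the narrowest among the 42 genes. The 6 subunits of the MCM helicase, which unwinds DNA at the fork, had log2 fold changes from -0.13 (Mcm3) through 0.02 (Mcm7), 0.17 (Mcm4), 0.24 (Mcm5) and 0.40 (Mcm6) to 0.92 (Mcm2). Mcm2 had the widest interval of these (-0.32 to 2.17), and among the controls its counts ran from 5 in control replicate 2 to 39 in control replicate 1.

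Rrm1 and Rrm2 encode the large and the small subunit of ribonucleotide reductase, which supplies deoxyribonucleotides. Rrm1 was at 9.82 ± 0.975 CPM in controls (SD, n = 4) and 9.79 ± 2.01 CPM after LPS (SD, n = 3), with a 95% interval of the log2 fold change from -0.44 to 0.43. Rrm2, the subunit whose amount follows S phase, was at 3.40, 4.42, 2.81 and 3.63 CPM in control replicates 1 to 4 and at 5.85, 1.87 and 2.37 CPM in LPS replicates 1 to 3. LPS replicate 1 was above all controls and LPS replicates 2 and 3 were below them. Cdt1, a licensing factor of replication origins, had an interval from -0.84 to 1.79. Cdc6, which loads the helicase with Cdt1, was too low to be tested, with 1 to 8 counts per sample. In sum the 13 genes were at 86.5, 83.5, 81.8 and 85.4 CPM in control replicates 1 to 4 and at 71.9, 74.9 and 72.8 CPM in LPS replicates 1 to 3, without overlap. This restates the fall of Tk1 and Tyms, since without them the groups overlapped, at 63.8, 62.4, 60.9 and 60.4 CPM in control replicates 1 to 4 and 62.2, 68.4 and 63.5 CPM in LPS replicates 1 to 3.

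**Figure D2:**
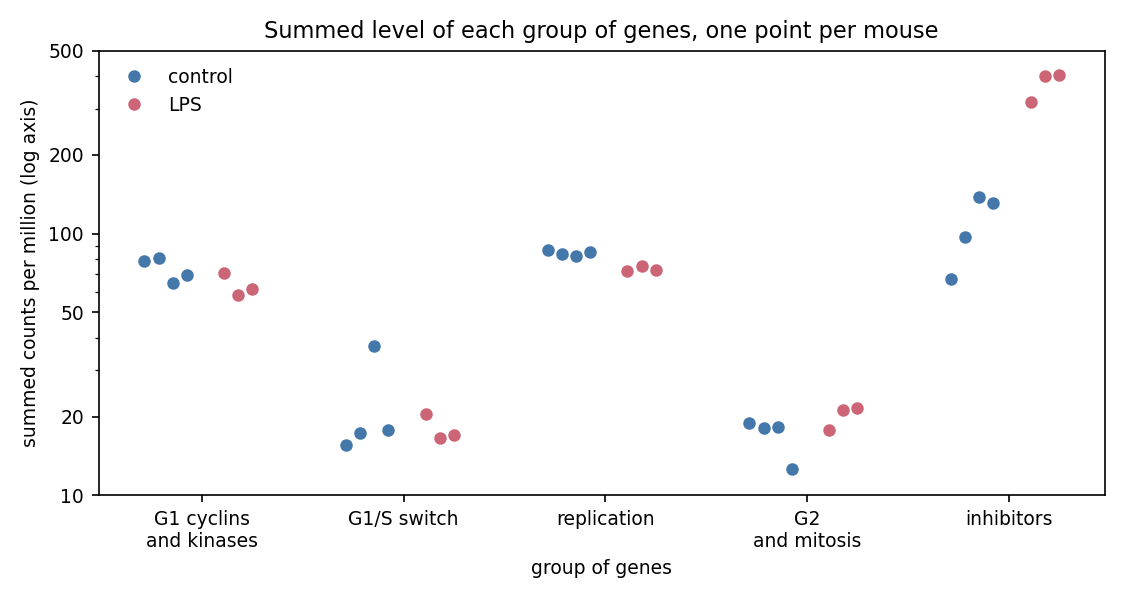
Summed level of each group of genes (y axis, CPM on a log axis) by phase (x axis), with 1 point per mouse, blue for control and red for LPS. The inhibitors lay at 67.3 to 138 CPM in controls and 320 to 403 CPM after LPS, the replication genes at 81.8 to 86.5 CPM and 71.9 to 74.9 CPM, and the other groups overlapped. Without the genes that passed, the inhibitors and the replication genes overlapped too.

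Of the 15 genes of G2 and mitosis, 11 were tested. None passed edgeR's quasi-likelihood test in either direction, none passed DESeq2, and at an unadjusted p below 0.05 there was 1 higher (Birc5) and 1 lower (Ccnb2). On average in controls 5 of the 11 were below 1 CPM, and no interval stayed within 1 log2 unit. Aurkb, Bub1, Foxm1 and Mybl2 were too low to be tested, with 1 to 18, 0 to 9, 0 to 11 and 4 to 17 counts per sample. In Bub1 the groups were apart, with 0 to 3 counts in controls and 6 to 9 after LPS. These encode the Aurora B and BUB1 mitotic kinases and the transcription factors FOXM1 and B-MYB of G2 and mitotic genes.

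Mki67 encodes the Ki-67 protein used to stain cycling cells. Its level was 3.40, 2.90, 1.59 and 1.16 CPM in control replicates 1 to 4 and 2.44, 3.16 and 3.92 CPM in LPS replicates 1 to 3. The groups overlapped, and the interval of the log2 fold change ran from -0.42 to 1.41. Top2a, which encodes the topoisomerase that untangles chromosomes, was at 2.05, 2.15, 1.53 and 1.60 CPM in control replicates 1 to 4 and at 3.23, 2.32 and 2.68 CPM in LPS replicates 1 to 3. Here every LPS sample was above every control, by a narrow margin between LPS replicate 2 and control replicate 2, and the adjusted p was 0.260 in edgeR (log2 fold change 0.59, interval -0.19 to 1.37).

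Birc5 encodes survivin, a subunit of the chromosomal passenger complex. It was at 0.566, 0.820, 0.611 and 1.31 CPM in control replicates 1 to 4 and at 1.38, 1.87 and 2.18 CPM in LPS replicates 1 to 3. The samples of the groups were apart, with control replicate 4 close to LPS replicate 1, and the adjusted p was 0.119 in edgeR (log2 fold change 1.10, interval 0.04 to 2.17). Ccnb2, which encodes cyclin B2, went the other way. Its level was 1.56, 1.07, 0.489 and 0.532 CPM in control replicates 1 to 4 and 0.230, 0.322 and 0.125 CPM in LPS replicates 1 to 3. All LPS samples were below all controls, but they held only 2 to 5 counts, and the adjusted p was 0.0624 in edgeR (log2 fold change -1.97, interval -3.54 to -0.40). Over the alternative settings the adjusted p was between 0.0412, without control replicate 3 in edgeR, and 0.215.

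Reads of Ccnb2 could also be shared with its pseudogene Ccnb2-ps, which held 23, 8, 11 and 22 counts in control replicates 1 to 4 and 10, 14 and 18 counts in LPS replicates 1 to 3. These are more counts than Ccnb2 itself held in 6 of the 7 samples, so the level of Ccnb2 is uncertain. Of 6 pseudogenes named after the cell cycle genes, only Ccnb2-ps and Pcna-ps2 held any counts, and Pcna-ps2 held 5 in all.

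Ccnb1, which encodes cyclin B1, had 5 to 15 counts in controls and 1, 20 and 12 counts in LPS replicates 1 to 3. Cdc20, the activator of the anaphase-promoting complex, was at 0.708, 1.58, 1.34 and 0.484 CPM in control replicates 1 to 4 and at 0.0461, 0.129 and 1.87 CPM in LPS replicates 1 to 3. LPS replicates 1 and 2 were nearly without it and LPS replicate 3 was the highest of the 7, and without that mouse its log2 fold change was -3.52 (adjusted p = 0.0359, edgeR) in place of -0.61 (adjusted p = 0.683, edgeR). Over the alternative settings its adjusted p was between 0.0359 and 0.987 in edgeR and DESeq2. Cdk1, the mitotic kinase, was at 1.73 ± 0.378 CPM in controls (SD, n = 4) and 1.27 ± 0.530 CPM after LPS (SD, n = 3). Its partner cyclin A2, encoded by Ccna2, was at 1.26 ± 0.678 CPM (SD, n = 4) and 2.16 ± 0.455 CPM (SD, n = 3), with an interval of the log2 fold change from -0.29 to 1.85.

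Aurka and Plk1 encode mitotic kinases, and Kif11 the motor that pushes the spindle poles apart. Their log2 fold changes were -0.29 (interval -1.15 to 0.57), 1.50 (interval -0.54 to 3.53) and 0.73 (interval -0.51 to 1.97). Summed over the 15 genes, G2 and mitosis was at 19.0, 18.05, 18.3 and 12.6 CPM in control replicates 1 to 4 and at 17.8, 21.3 and 21.5 CPM in LPS replicates 1 to 3. Control replicate 4 was the lowest and LPS replicates 2 and 3 the highest, and LPS replicate 1 lay among the controls. The median log2 fold change of the 11 genes tested was 0.49, against -0.01 over all genes tested, and 7 of the 11 were positive. The 11 monocyte and neutrophil markers had a summed level of 10.1, 8.33, 3.67 and 6.92 CPM in control replicates 1 to 4 and 267, 193 and 187 CPM in LPS replicates 1 to 3. Their part in the levels of the mitotic genes was not tested.

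Of the 10 inhibitors 9 were tested, and 3 rose and 1 fell, where 13.3% of all genes tested rose and 13% fell. In DESeq2 2 rose and 1 fell. The gene that fell was Cdkn1c, whose call is set aside below. Cdkn1a (ENSMUSG00000023067) encodes p21, an inhibitor of cyclin-dependent kinases and a target of p53. Its level was 6.09, 8.52, 5.50 and 19.98 CPM in control replicates 1 to 4 and 123, 134 and 129 CPM in LPS replicates 1 to 3. It rose 12.7-fold (log2 fold change 3.67, SE 0.36, adjusted p = 9.63e-06, edgeR's quasi-likelihood test). The 3 LPS samples lay within a narrow range, control replicate 4 was the highest control, and the groups were far apart. Without control replicate 4 the log2 fold change was 4.26, the range over the removal of each mouse being 3.46 to 4.26, and with LPS replicates 2 and 3 summed it was 3.66.

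Btg2 (ENSMUSG00000020423) encodes an antiproliferative protein that works through the CCR4-NOT deadenylase, which shortens poly(A) tails. It was at 7.22, 13.1, 8.37 and 22.2 CPM in control replicates 1 to 4 and at 60.7, 102 and 93.4 CPM in LPS replicates 1 to 3. The rise was 6.64-fold (log2 fold change 2.73, SE 0.33, adjusted p = 5.55e-05, edgeR's quasi-likelihood test). Control replicate 4 was again the highest control, LPS replicate 1 was the lowest LPS sample, and the groups did not overlap. Summing LPS replicates 2 and 3 gave a log2 fold change of 2.64.

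Gadd45g (ENSMUSG00000021453) encodes a stress protein that binds the CDK1 and cyclin B1 complex and p21. It was at 13.5, 47.8, 90.4 and 46.0 CPM in control replicates 1 to 4 and at 98.3, 137 and 152 CPM in LPS replicates 1 to 3. The rise was 2.61-fold (log2 fold change 1.38, SE 0.42, adjusted p = 0.0274, edgeR's quasi-likelihood test). The controls differed widely, control replicate 3 came close to LPS replicate 1, and the groups did not overlap. The call was lost in DESeq2 (adjusted p = 0.0923), with LPS replicates 2 and 3 summed (adjusted p = 0.0876 in edgeR) and without control replicate 2 (0.0752), control replicate 4 (0.0631), LPS replicate 2 (0.0760) or LPS replicate 3 (0.0976). Its log2 fold change over all of the alternative settings was between 1.07 and 1.84.

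Cdkn1c (ENSMUSG00000037664) encodes p57, an imprinted inhibitor of cyclin-dependent kinases, and was lower after LPS. Its level was 1.49, 1.33, 1.41 and 1.11 CPM in control replicates 1 to 4 and 0.277, 0.193 and 0.374 CPM in LPS replicates 1 to 3. The fall was 4.63-fold (log2 fold change -2.21, SE 0.57, adjusted p = 0.0127, edgeR's quasi-likelihood test). The controls lay close together at 21 to 23 counts, the LPS samples held 3 to 6 counts, and the groups did not overlap. Cdkn1c had enough counts to be tested only through the control samples, so its call is set aside. Without LPS replicate 2 the adjusted p was 0.0674 in edgeR, where the lowest over the alternative settings was 0.00708, and with LPS replicates 2 and 3 summed the log2 fold change was again -2.21.

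**Figure D3:**
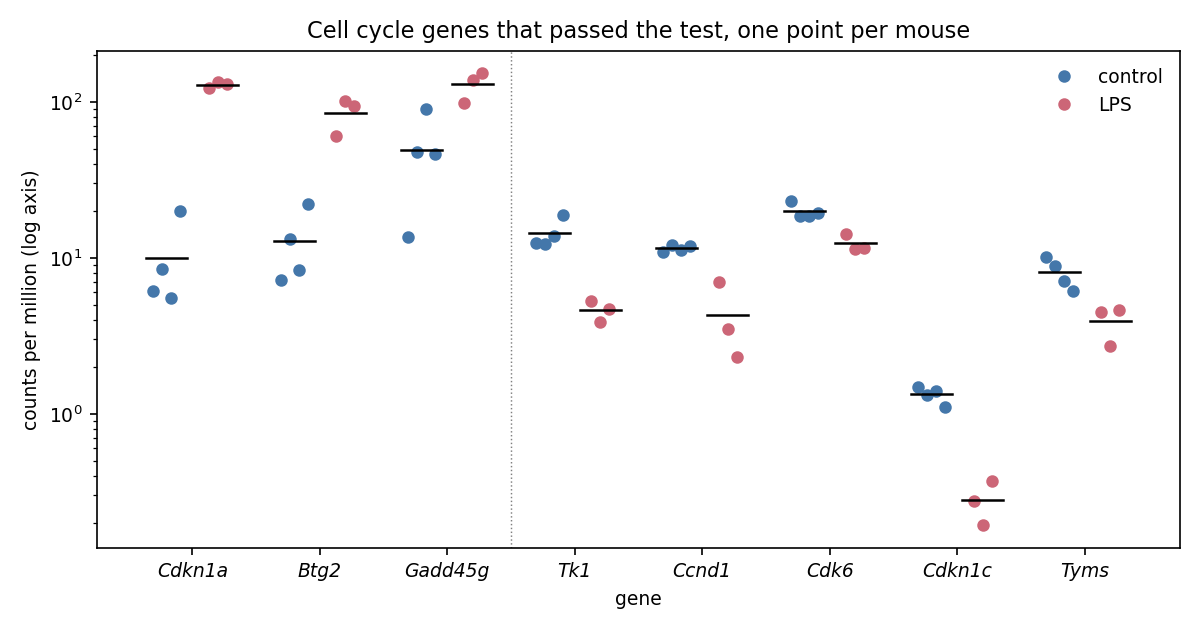
Level of the 8 cell cycle genes that passed (y axis, CPM on a log axis; x axis, gene), with 1 point per mouse, blue for control (n = 4) and red for LPS (n = 3), and a black line at the mean of the group. Cdkn1a went from 5.50 to 19.98 CPM in controls to 123 to 134 CPM after LPS, and in none of the 8 genes did the groups overlap.

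The other inhibitors did not pass. Cdkn1b, which encodes p27, was at 24.5 ± 7.33 CPM in controls (SD, n = 4) and 20.03 ± 3.33 CPM after LPS (SD, n = 3), with an interval of the log2 fold change from -0.79 to 0.21. Cdkn2c encodes p18, an inhibitor of CDK4 and CDK6, and had an interval from -0.39 to 0.80. Cdkn2b, an INK4 gene like Cdkn2c, was too low to be tested, with 0 to 3 counts per sample. Wee1 encodes the kinase that holds CDK1 inactive before mitosis, and its interval ran from -1.55 to 0.90.

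Gadd45a and Gadd45b, relatives of Gadd45g, had values of opposite sign, and neither passed. Gadd45b was at 0.566, 1.77, 0.794 and 1.06 CPM in control replicates 1 to 4 and at 3.78, 1.997 and 1.37 CPM in LPS replicates 1 to 3. LPS replicate 3 lay below control replicate 2, and the adjusted p was 0.116 in edgeR (log2 fold change 1.18, interval 0.05 to 2.31). Gadd45a had a log2 fold change of -0.84 with an interval from -1.97 to 0.30. Per kilobase of exon, the mean level after LPS was 110 CPM for Gadd45g, 36.2 for Cdkn1a, 31.1 for Btg2, 4.40 for Cdkn1b, 1.50 for Gadd45b and 0.138 for Cdkn1c. In controls the mean level per kilobase was 42.1 CPM for Gadd45g, 5.38 for Cdkn1b, 4.64 for Btg2, 2.82 for Cdkn1a, 0.660 for Gadd45b and 0.653 for Cdkn1c.

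The 10 inhibitors summed to 67.3, 96.7, 138 and 131 CPM in control replicates 1 to 4 and to 320, 401 and 403 CPM in LPS replicates 1 to 3, with no overlap. This restates the calls of single genes, since without the 4 inhibitors that passed the groups overlapped, at 25.9 to 41.4 CPM in controls and 27.3 to 37.6 CPM after LPS. Of the 34 genes in all groups that did not pass, 12 had a 95% interval within 1 log2 unit on either side of 0, and 22 had one that reached past it. For these 22 a 2-fold change in at least 1 direction lay inside the interval.

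Promoters of 39 of the 48 genes were found in a RefSeq table for the mouse build GRCm38.p6, with 43 promoters of 300 bases each, from 250 bases before to 50 after the start. The counts were made on the later build GRCm39, so the positions belong to GRCm38.p6 only. Ccnd1, Ccnd2, Ccne2, Mcm4, Ccna2, Aurkb, Foxm1, Cdkn1c and Wee1 were not matched. The 3 motifs searched on both strands were CCAAT, bound by NF-Y, TTTGAA, the core of the cell cycle genes homology region, and TTTNNCGC, an E2F motif, where N is any base. Motifs shared bases in 1 of the 43 promoters. CCAAT was in 65.1% of the 43 promoters, against 37.4% of all 32851 promoters of the same length and 37.6% of the 13088 promoters of genes tested. TTTGAA was in 25.6%, against 17.9% and 12.5%, and TTTNNCGC in 23.3%, against 5.17% and 7.88%.

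The motifs were spread by phase. Of the 12 promoters of G2 and mitosis, 10 held CCAAT (83.3%), 8 held TTTGAA (66.7%) and 8 held both. Of the 13 replication promoters, 9 held CCAAT (69.2%) and 7 held TTTNNCGC (53.8%), and 1 held TTTGAA. In the 10 promoters of inhibitors, 6 held CCAAT, 1 held TTTGAA and none held TTTNNCGC. None of the 3 motifs was common to all the genes that passed and had a matched promoter, which Ccnd1 and Cdkn1c did not have. The promoters shown are those of a pair that rose, Btg2 and Gadd45g, a pair that fell, Tyms and Cdk6, and Top2a, as an example of the mitotic genes that did not pass. Capitals mark a match to any of the 3 motifs, on the strand shown or, as its reverse complement, on the other one.
Btg2, chr1:134079106-134079405, minus strand: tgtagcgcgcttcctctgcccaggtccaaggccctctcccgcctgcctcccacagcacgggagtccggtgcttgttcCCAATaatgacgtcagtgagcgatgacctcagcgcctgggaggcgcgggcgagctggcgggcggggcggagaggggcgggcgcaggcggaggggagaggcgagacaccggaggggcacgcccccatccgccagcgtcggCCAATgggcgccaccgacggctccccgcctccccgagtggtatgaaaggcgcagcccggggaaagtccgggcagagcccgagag
Gadd45g, chr13:51846425-51846724, plus strand: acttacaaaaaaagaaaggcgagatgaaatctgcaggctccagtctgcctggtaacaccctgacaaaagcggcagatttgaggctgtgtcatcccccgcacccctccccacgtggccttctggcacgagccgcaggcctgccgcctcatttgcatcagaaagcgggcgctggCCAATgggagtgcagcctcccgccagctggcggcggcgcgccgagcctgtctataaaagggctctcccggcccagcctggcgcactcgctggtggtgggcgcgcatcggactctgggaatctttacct
Tyms, chr5:30073576-30073875, minus strand: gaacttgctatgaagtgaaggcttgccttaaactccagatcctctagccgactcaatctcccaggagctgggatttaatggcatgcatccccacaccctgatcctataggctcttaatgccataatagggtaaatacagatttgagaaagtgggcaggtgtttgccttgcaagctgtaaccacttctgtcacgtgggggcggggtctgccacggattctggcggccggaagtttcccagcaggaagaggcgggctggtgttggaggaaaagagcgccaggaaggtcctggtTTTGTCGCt
Cdk6, chr5:3343643-3343942, plus strand: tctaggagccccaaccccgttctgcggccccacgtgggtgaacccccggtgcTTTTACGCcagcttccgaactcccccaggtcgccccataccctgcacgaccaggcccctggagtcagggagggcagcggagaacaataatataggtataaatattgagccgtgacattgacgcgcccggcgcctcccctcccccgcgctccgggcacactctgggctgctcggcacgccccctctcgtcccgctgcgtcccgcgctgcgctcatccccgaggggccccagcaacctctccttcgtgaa
Top2a, chr11:99024140-99024439, minus strand: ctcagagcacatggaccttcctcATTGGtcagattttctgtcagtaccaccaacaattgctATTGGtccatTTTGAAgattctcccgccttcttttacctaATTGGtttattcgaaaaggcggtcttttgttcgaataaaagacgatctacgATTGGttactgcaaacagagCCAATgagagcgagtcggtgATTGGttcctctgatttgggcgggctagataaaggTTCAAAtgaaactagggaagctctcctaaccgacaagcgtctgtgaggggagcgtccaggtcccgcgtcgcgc
Btg2 and Gadd45g held CCAAT, Tyms and Cdk6 held TTTNNCGC, and Top2a held 6 matches to CCAAT and 2 to TTTGAA. Neither promoter of Cdkn1a, nor that of Tk1, held any of the 3 motifs. A match is a stretch of letters and does not show binding.

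Further genes of the same pathways were counted by list, and their counts stand beside 13.3% higher and 13% lower over all genes tested. Among 23 other G1 and RB-E2F genes 20 were tested, and 1 rose and none fell. The gene that rose was Lin52, a subunit of the complex that represses cell cycle genes at rest (log2 fold change 0.69, SE 0.23, adjusted p = 0.0430, edgeR). Of 48 other replication genes 42 were tested, with 2 higher (Pclaf and Chaf1b) and 3 lower, among them Dut and Mcm10. Dut encodes the enzyme that makes the substrate of thymidylate synthase, and its log2 fold change was -1.28 (SE 0.27). Dut was at 8.28, 9.53, 5.74 and 8.47 CPM in control replicates 1 to 4 and at 2.77, 3.09 and 4.05 CPM in LPS replicates 1 to 3, without overlap. The log2 fold change was -1.04 (SE 0.26) for Mcm10, a replication fork protein, 2.05 (SE 0.60) for Pclaf, which binds PCNA, and 1.60 (SE 0.55) for Chaf1b, a histone chaperone. Chaf1b held 5 to 7 counts in each control and 16 to 33 after LPS. It had enough counts to be tested only through the LPS samples, so its call is set aside.

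Of 56 other mitosis genes only 31 had enough counts, with 1 higher and 3 lower. Ccnf, which encodes cyclin F, had a log2 fold change of 0.92 (SE 0.25). Spc24 (log2 fold change -1.80, SE 0.30) and Cenpa (log2 fold change -1.70, SE 0.39) encode parts of the kinetochore and the centromere, and Pttg1 (log2 fold change -0.44, SE 0.14) encodes securin. The median log2 fold change was -0.11 over the other G1 genes, -0.12 over the other replication genes and 0.05 over the other mitosis genes, against -0.01 over all genes tested. In the other replication list 14 of the 42 genes tested had a positive value. Its summed level was 335 to 397 CPM in controls and 293 to 301 CPM after LPS, without overlap. This sum holds the genes that passed, among them Mcm10, the most abundant of the list. The sums of the G1 list and of the mitosis list overlapped between groups.

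Of 31 other brakes and checkpoint genes 27 were tested, and 8 rose and 1 fell, where 13.3% of all genes tested rose and 13% fell. Btg3, a relative of Btg2, was at 3.47, 2.97, 3.48 and 4.26 CPM in control replicates 1 to 4 and at 35.7, 45.2 and 53.5 CPM in LPS replicates 1 to 3 (log2 fold change 3.65, SE 0.19). Pmaip1, a p53 target that promotes cell death, had a log2 fold change of 2.81 (SE 0.47), and Klf6, which encodes a zinc finger factor, had 1.18 (SE 0.21). Tob1, of the same family as Btg2, fell (log2 fold change -0.70, SE 0.23). The median was 0.17 over the list. Of 24 growth signals to hepatocytes 21 were tested, with 3 higher (Tgfb1, Inhbb and Erbb3) and 2 lower (Igf1 and Inhba). Tgfb1, whose product restrains hepatocyte growth, had a log2 fold change of 1.42 (SE 0.30), Inhbb 1.61 (SE 0.47) and Erbb3 0.48 (SE 0.17), while Igf1 had -1.13 (SE 0.15) and Inhba, which encodes activin A, had -2.69 (SE 0.42). Their median was -0.24.

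Because the expression of Wee1 and Cdkn1a follows the time of day, 14 core clock genes were counted too. Of these, 2 were higher (Ciart and Per1) and 2 lower, where 13.3% of all genes tested rose and 13% fell. The median log2 fold change of the list was -0.20. Per1 had a log2 fold change of 2.13 (SE 0.30), Nr1d1 -1.71 (SE 0.34) and Nr1d2 -0.99 (SE 0.15). Ciart held 0 to 2 counts in controls and was at least 23.8-fold higher after LPS, taking 3 counts in each control. It had enough counts to be tested only through the LPS samples, so its call is set aside. The hour at which each mouse was killed is not given in the sources used here, and its part in the results was not tested.

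A liver sample holds other cells than hepatocytes. Of 11 monocyte and neutrophil markers 10 were tested, S100a9 was the most abundant, and Ly6g had no counts in controls. Of 8 granulocyte precursor markers 4 were tested, with summed levels of 0.283, 3.22, 0.611 and 0.290 CPM in control replicates 1 to 4 and 43.3, 46.5 and 50.9 CPM in LPS replicates 1 to 3. Chil3 was the most abundant, Mpo, Ctsg and Ngp had no counts in controls, and after LPS Mpo had 1 count and Ctsg 3 counts in all. Genes of both lists that were near 0 in controls had enough counts only through the LPS samples, so the calls of these lists are not counted. Of 12 macrophage markers 5 rose and 1 fell, where 13.3% of all genes tested rose and 13% fell. The sums of these markers were 150, 221, 186 and 179 CPM in control replicates 1 to 4 and 716, 198 and 206 CPM in LPS replicates 1 to 3. LPS replicate 1 stood apart through Marco, the most abundant of them.

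The other marker lists gave the following counts, beside the 13.3% higher and 13% lower over all genes tested. Of 12 lymphocyte markers 7 were tested, with sums of 8.005 to 11.3 CPM in controls and 2.32 to 5.25 CPM after LPS. Cd4 was the most abundant. Those tested had a median level of 0.978 CPM in controls and a median log2 fold change of -2.15. Some may have had enough counts only through the controls, so the calls of this list are not counted. Of 8 erythroid markers 7 were tested and 4 fell, with sums of 181 to 309 CPM in controls and 54.6 to 137 CPM after LPS. Hbb-bs was the most abundant of these, and reads of the paired globin genes can be split between them. Of 11 hepatocyte markers 4 rose and 3 fell, with sums of 68045 to 94504 CPM in controls and 64816 to 79238 CPM after LPS. Of 8 endothelial markers 2 rose and 2 fell, with sums of 86.2 to 136 and 72.6 to 146 CPM and Stab2 the most abundant. Of 8 stellate cell markers 1 rose and 1 fell, with sums of 138 to 323 and 203 to 273 CPM and Dcn the most abundant. Of 5 cholangiocyte markers 1 rose, with sums of 72.2 to 262 and 137 to 165 CPM and Spp1 the most abundant. The part of these cells in the levels of the cell cycle genes was not tested.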

How the data were processed

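The authors deposited raw counts of reads per gene for 56691 genes in 7 liver samples, from poly(A) strand-specific libraries. The submitters' processing notes name cutadapt 1.9.1, HISAT2 2.2.1, HTSeq 0.6.1, DESeq2 1.34.0 and the build GRCm39. The treatment of reads that match several genes is not given in the sources used here.

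After filterByExpr and TMM scaling, edgeR 4.0.16 (R 4.3.3) was used for the quasi-likelihood test of LPS against control, with no term besides the treatment. The SE was derived from the F statistic, and CPM is the count relative to the TMM-scaled library. Total counts were 14991022, 15096573, 15721944 and 18584140 in control replicates 1 to 4 and 20500391, 17095607 and 17821331 in LPS replicates 1 to 3. A fold against a group with at most 3 counts in each sample takes 3 counts there and is a lower bound that covers counting error only. Exon lengths came from GENCODE M21 by gene identifier, as the union of all annotated exons of a gene, and serve only for levels per kilobase.

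Samples were grouped by the treatment label, and each was taken as 1 mouse, since the study's text counts 4 control and 3 LPS mice. The library batches are not given in the sources used here. The genes named are all 48, the 3 smallest p in each direction of each other pathway list, the most abundant gene and the genes without counts of each marker list, and Hp and Saa1. Others, such as the pseudogenes, were chosen after their values were seen. The members and the lists were chosen with earlier results of these data known. Bmal1 of the clock list and Tf of the hepatocyte list were not found under these symbols. The values of 1 gene that the rule names are not reported here.

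Alternative settings were the Wald test of DESeq2 1.42.0, RLE factors, library totals without factors, totals without genes above 1% of the counts, all genes unfiltered, a minimum of 10 counts in each sample, 2 stricter thresholds, a replicate block, the removal of each mouse, and the sum of LPS replicates 2 and 3.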

Additional observations from a re-analysis of the deposited data

Results flagged for a closer look

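Among the 48 cell cycle genes, 6 had 1 control mouse far from the other 3, by the gap to its nearest neighbour as a share of the range of the 4 controls. For values from a normal distribution, chance gives about 1 such gene in 20. Levels of genes with few counts need not follow one, so the share that chance gives here is not known. Control replicate 3 had 20.8 CPM of E2f8, where the others had 4.42 to 4.74 CPM, and 2.38 CPM of Ccnd2, where the others had 5.24 to 5.56 CPM. Control replicate 1 had 23.0 CPM of Cdk6, where the others had 18.6 to 19.3 CPM. It also had 1.84 CPM of Kif11, against 0.505 to 0.677 CPM, and 0.778 CPM of Foxm1, against 0.183 to 0.194 CPM, where Foxm1 rests on 3 to 11 counts. Control replicate 2 had 6.50 CPM of Mcm6, where the others had 3.87 to 4.16 CPM. Of these 6 genes only Cdk6 passed, and it passed without control replicate 1 as well. The LPS group, with 3 mice, was not examined in this way.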

How the results depend on the processing

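Of the 8 cell cycle genes that passed, Cdkn1a, Btg2, Tk1 and Ccnd1 passed in all 15 alternative fits. Over the 42 genes tested, 598 of 610 alternative values stayed on their side of the threshold, 10 lost a call (Gadd45g 6, Cdk6 2, Tyms 1, Cdkn1c 1) and 2 gained one (Ccnb2, Cdc20), and no called gene changed sign. The causes were not tested.

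With an absolute log2 fold change above 1 asked for, 1068 genes were higher and 1000 lower, and 1 G1 gene was lower. At an adjusted p below 0.01, 1091 genes were higher and 993 lower, 3 cell cycle genes were lower, 1 of them in replication and 0 among the inhibitors. With at least 10 counts in every sample, 0 inhibitors were lower, since Cdkn1c was among the 13 genes no longer tested.

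Leaving out 1 mouse gave 1290 to 1906 genes higher and 1146 to 1868 lower (1146 without LPS replicate 2, 1159 without LPS replicate 3). The lower cell cycle genes numbered 2 to 6, with 2 without LPS replicate 2 and 6 without control replicate 3. By phase they numbered 1 to 2 in G1, 1 to 2 in replication, 0 to 1 in G2 and mitosis and 0 to 1 among the inhibitors.

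With total counts in place of scaling factors the median log2 fold change of all genes moved by -0.12, and 1350 genes were higher and 2057 lower, so that 39.6% of the calls were upward in place of 50.7%.

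The replicate numbers 1 to 3 were not treated as pairs in the main fit. The deviations of same-numbered mice had correlations of 0.18, -0.06 and 0.07. Those of differently numbered mice ran from -0.14 to 0.10. So few values cannot exclude a pairing. With a replicate block 1647 genes were higher and 1587 lower, and 3 and 5 cell cycle genes. Of the 34 genes that did not pass, 22 had an interval that reached past 1 log2 unit, and the part of depth in this was not tested.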
